A study of Mus musculus with 10 samples.

Results

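Extracellular proteases of fat tissue and their inhibitors are described here across gonadal white adipose tissue of mice with and without an induced adipose deletion of Med19. The members are the protein-coding genes of the deposited gene table named Mmp, Adamts or Adamtsl with a number, and Timp1 to Timp4. They number 50 of 40503 genes and comprise 22 Mmp, 19 Adamts, 5 Adamtsl and 4 Timp genes. The 41 Mmp and Adamts genes are called proteases below. Libraries came from 5 female C57BL/6 mice per group. The KO mice carried the tamoxifen-inducible Med19 deletion (genotype Med19 KO, line Med19-iAKO), received 100 mg/kg tamoxifen on 5 days at 12 weeks of age, and gave tissue 14 days later. The WT mice were controls of the same age, and the labels do not say whether they received tamoxifen, nor which promoter drives the recombinase.

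Matrix metalloproteinases (MMPs) are zinc enzymes that cut collagens, proteoglycans and other proteins outside the cell or at its surface, and most are made as inactive precursors. ADAMTS enzymes are secreted relatives that trim procollagens or cleave large proteoglycans such as versican, and ADAMTS-like proteins share their accessory domains but lack the protease domain. Tissue inhibitors of metalloproteinases (TIMPs) bind the active site of these enzymes. In adipose tissue the family is known for remodelling of the matrix around growing or shrinking fat cells.

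RNA of the targeted gene did not separate the groups. Med19 was at 6.79 ± 0.85 RPKM (reads per kilobase of gene, scaled to library depth; mean ± SD, n = 5) in the KO libraries and 6.70 ± 0.89 RPKM in WT (2-sided exact permutation test, p = 0.881). The KO libraries are therefore called KO-labelled. Reads assigned to genes numbered 14441275 to 20179236 per library, as recovered from the RPKM values. All 8 adipocyte markers of the list used here were detected in both groups, as the labelled tissue calls for. Their summed level was 2401 to 2992 RPKM in KO-labelled libraries and 9109 to 13579 RPKM in WT, and 7 of the 8 were lower. In whole tissue, fewer cells of a type and less RNA per cell cannot be told apart.

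In a fit over 17038 genes, 4 members were higher in the KO-labelled libraries and 0 were lower: the inhibitor gene Timp1 and the protease genes Mmp3, Mmp8 and Mmp19. Each rose by 1.36 to 2.17 times in mean RPKM. The fit was limma on log2(RPKM + 0.5), with calls at a Benjamini-Hochberg adjusted p under 0.05. Over all genes tested 4.00% were called higher and 1.95% lower, 5.95% in all. At an unadjusted p under 0.05, 8 members were higher and 2 lower, against 24.7% of all genes in either direction. These calls depended on scaling between libraries. With median-ratio scaling 0 members were called higher and 1, Adamts12, lower, and over all genes the split went from 681 higher and 332 lower to 102 and 414. Quantile normalization called Mmp8 higher and Adamts12 lower, with 541 genes called over the table, 149 of them higher. Libraries are taken as separate animals because each title has its own number, and the p-values measure the spread between these samples.

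Of the 50 members 35 passed the filter on low values (at least 0.5 RPKM in at least 5 libraries), and 28 of these had a log2 change above 0, where 68.7% of all tested genes did. Their median log2 change was 0.11, beside 0.089 over all genes tested. The 15 members left out had means of at most 0.512 RPKM. No member had a value of 0 in every library. Both the share above 0 and the median lay near those of the whole table or a little above them.

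Promoter sequences are shown for the called members that the RefSeq table of GRCm38.p6 holds, Mmp3, Mmp8 and Timp1, and for Mmp12, a neighbour of Mmp3. Each is the 250 bases before the annotated start, 5′ to 3′ on the gene's strand. The table has 2 windows for Mmp12, of which the second is printed because it holds a match; the first, at chr9:7344147-7344396, holds neither motif. Capitals mark the AP-1 motif TGANTCA and the TATA box TATAAA, searched on both strands. The 2 motifs do not overlap each other.
Mmp3, chr9:7445572-7445821, + strand: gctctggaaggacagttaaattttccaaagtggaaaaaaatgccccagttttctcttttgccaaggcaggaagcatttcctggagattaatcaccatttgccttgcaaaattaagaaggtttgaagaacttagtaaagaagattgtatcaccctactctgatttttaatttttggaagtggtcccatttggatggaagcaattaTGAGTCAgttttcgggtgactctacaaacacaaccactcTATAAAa
Mmp12, chr9:7347124-7347373, + strand: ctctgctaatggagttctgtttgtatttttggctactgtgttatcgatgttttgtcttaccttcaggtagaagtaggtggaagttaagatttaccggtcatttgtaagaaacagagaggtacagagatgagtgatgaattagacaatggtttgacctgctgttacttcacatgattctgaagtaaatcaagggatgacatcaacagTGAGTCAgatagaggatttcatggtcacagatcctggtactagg
Mmp8, chr9:7558179-7558428, + strand: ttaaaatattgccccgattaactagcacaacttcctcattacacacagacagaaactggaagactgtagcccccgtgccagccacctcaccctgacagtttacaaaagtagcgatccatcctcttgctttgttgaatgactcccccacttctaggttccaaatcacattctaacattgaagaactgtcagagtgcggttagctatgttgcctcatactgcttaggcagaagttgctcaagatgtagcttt
Timp1, chrX:20869916-20870165, + strand: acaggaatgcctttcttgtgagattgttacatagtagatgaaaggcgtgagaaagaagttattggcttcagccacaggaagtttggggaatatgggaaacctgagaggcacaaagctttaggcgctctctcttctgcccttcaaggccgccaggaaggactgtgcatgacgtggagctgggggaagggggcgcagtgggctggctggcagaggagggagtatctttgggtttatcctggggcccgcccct
Mmp3 holds TGAGTCA 46 to 40 bases before the start and TATAAA 7 to 2 bases before it. The second window of Mmp12 holds TGAGTCA 44 to 38 bases before its start, and neither set of letters is in the windows printed for Mmp8 and Timp1. Starts were checked against GENCODE M21 transcripts only for the genes printed here. For Mmp8 alone among them, the bases after the start were not found in a transcript of the gene. Its window may therefore not lie before the start of the Mmp8 RNA measured. AP-1 is the Fos and Jun dimer, long known as a regulator of MMP genes. Among 35 members with a window, 7 held the AP-1 letters, against 6.75% of all 32851 windows. TATAAA was in 9 of the 35 members and in 12.4% of all windows. Members are counted by gene, with 38 windows among them, and the whole table by window. A gene with 2 windows thus has more chances of a match, and the shares are not in the same unit.

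All 7 members with the AP-1 letters lie in one run of neighbouring Mmp genes on chromosome 9. In the RefSeq order the run reads Mmp13, Mmp12, Mmp1b, Mmp3, Mmp1a, Mmp10, Mmp8, Mmp27, Mmp20 and Mmp7. The deposited table gives Mmp1a as a polymorphic pseudogene, which leaves 9 members there. Among them only Mmp27 and Mmp8 had the AP-1 letters in no window. The annotated start of Mmp8 was not matched to a transcript, and that of Mmp27 was not checked. None of the 26 other members with a window had these letters. Only 3 of the 9, Mmp12, Mmp3 and Mmp8, were abundant enough to be tested. The sequence was thus shared by genes at very different levels, from 40.7 RPKM for Mmp12 to 0.00191 RPKM for Mmp20.

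Levels ranged from 172 RPKM for Timp2, the inhibitor with the highest level, to near 0. After Timp2 came the collagen-cutting membrane protease gene Mmp14 at 102 RPKM over all 10 libraries, then Timp1 (82.5) and the gelatinase gene Mmp2 (53.3). Of the 50 members 18 had a mean of at least 10 RPKM and 14 a mean under 0.5 RPKM. RPKM is scaled to gene length, so these levels can be set side by side.

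**Figure D1:**
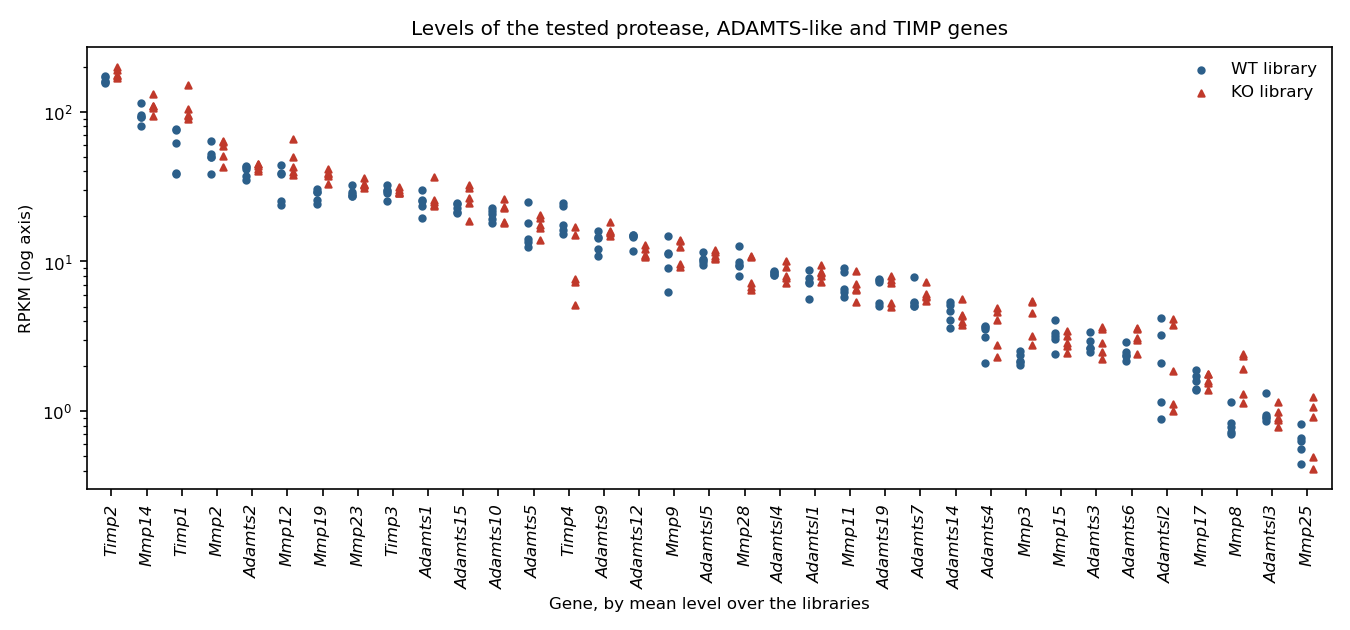
Levels of the 35 tested members in each library. The vertical log axis gives RPKM, genes are ordered by mean level, circles are the 5 WT libraries and triangles the 5 KO-labelled libraries; Timp2, Mmp14 and Timp1 lead, and triangles of Timp1 lie above its circles.

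The TIMP genes went different ways. Timp1, the inducible inhibitor of most soluble MMPs, was at 150.5, 93.6, 90.04, 104.0 and 95.7 RPKM in KO 1, KO 4, KO 7, KO 8 and KO 17. In WT it was at 61.8, 38.2, 76.9, 75.5 and 39.2 RPKM in WT 2, WT 9, WT 19, WT 86 and WT 89. The lowest KO-labelled library exceeded the highest WT library, as it did for 6.96% of tested genes, and KO 1 stood above the other 4. The means were 107 ± 25 and 58.3 ± 18.9 RPKM (SD, n = 5 each), a ratio of 1.83 and a log2 change of 0.90 (SE 0.23, limma adjusted p = 0.0481). The call was at the threshold. It was lost when any 1 library other than WT 19 was left out, at log2 changes of 0.77 to 0.96 without a KO-labelled library and 0.77 to 1.01 without a WT library. It was also lost with either scaling (limma adjusted p = 0.104 and 0.101), without a filter (0.0818) and without a trended, robust prior (0.0564). The groups still did not overlap after median-ratio scaling, with 89.2 RPKM as the lowest KO-labelled and 77.6 RPKM as the highest WT value.

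Timp4, an inhibitor known for high expression in fat and heart, ran the other way without passing the test. It was at 7.34, 15.0, 5.12, 7.69 and 17.1 RPKM in KO 1, KO 4, KO 7, KO 8 and KO 17. WT values were 17.4, 24.6, 16.2, 15.3 and 23.4 RPKM in WT 2, WT 9, WT 19, WT 86 and WT 89. The KO-labelled libraries were split: KO 1, KO 7 and KO 8 lay far below every WT library, while KO 4 and KO 17 were at the level of the lowest WT libraries. The log2 change was -0.97 (SE 0.30, 95% interval -1.64 to -0.29, limma adjusted p = 0.0852), and adjusted p stayed between 0.0527 and 0.175 in the runs without 1 library. Timp4 was not called under any alternative run. Summed adipocyte markers were at 2401 RPKM in KO 17 and 2809 in KO 4, among 2401 to 2992 RPKM in the group. Cfd alone averaged 1976 RPKM of a mean sum of 2733 RPKM in the KO-labelled libraries. The sum therefore does not show whether the other adipocyte markers share the split of Timp4, which was not tested.

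Timp2, which both inhibits MMPs and helps MMP14 to activate the MMP2 precursor, was at 191, 167, 199, 177 and 173 RPKM in KO 1, KO 4, KO 7, KO 8 and KO 17. WT 2, WT 9, WT 19, WT 86 and WT 89 had 159, 156, 171, 159 and 173 RPKM. The groups overlapped, and the log2 change was 0.15 (SE 0.07, limma adjusted p = 0.225). Timp3, the inhibitor that is held in the matrix and also acts on ADAM and ADAMTS enzymes, lay within 28.5 to 31.4 RPKM in KO-labelled libraries and 25.2 to 32.5 RPKM in WT. Its log2 change was 0.02 (95% interval -0.13 to 0.17), and the sign turned with either scaling. In GENCODE M21, 21.3% of the exon bases of Timp3 are shared with Syn3 on the opposite strand, and Timp1 lies in an intron of Syn1. Syn3 was at 0.245 to 0.411 RPKM and Syn1 at 0.599 to 1.48 RPKM over the 10 libraries, both far below the TIMP gene they overlap.

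**Figure D2:**
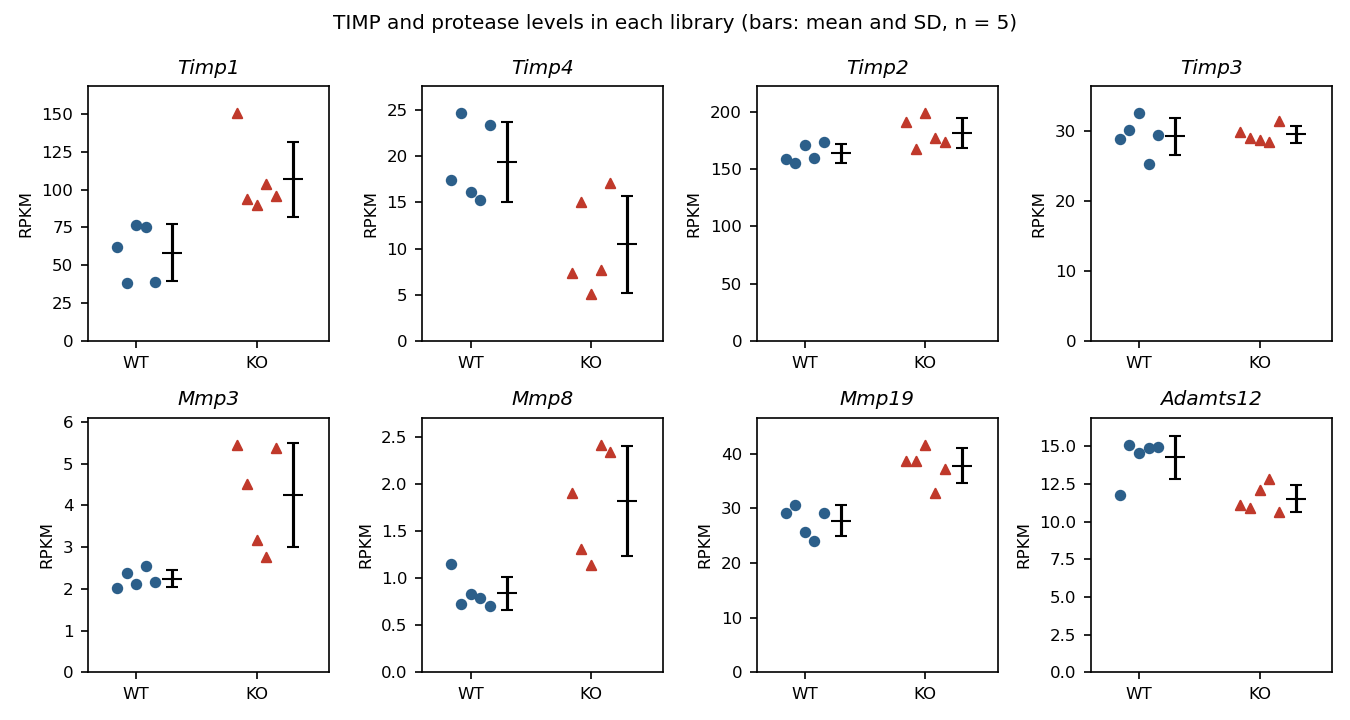
RPKM in each library for the 4 Timp genes, the 3 called protease genes and Adamts12, with WT as circles, KO-labelled libraries as triangles, and mean and SD (n = 5) as bars. In these deposited values Timp1, Mmp3 and Mmp19 do not overlap between groups, Mmp8 touches at 1.14 and 1.15 RPKM, and Timp4 spreads from 5.12 to 17.1 RPKM in the KO-labelled group.

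Mmp3 encodes stromelysin-1, which cuts many matrix proteins and activates other MMPs. It was at 5.45, 4.51, 3.17, 2.76 and 5.38 RPKM in KO 1, KO 4, KO 7, KO 8 and KO 17, and the WT values were 2.02, 2.39, 2.13, 2.54 and 2.16 RPKM in WT 2, WT 9, WT 19, WT 86 and WT 89. The groups did not overlap, with WT tightly placed and the KO-labelled libraries spread from 2.76 to 5.45 RPKM. After median-ratio scaling they met, with 2.597 RPKM in KO 8 and 2.604 RPKM in WT 86. Means as deposited were 4.25 ± 1.24 and 2.25 ± 0.21 RPKM, a ratio of 1.89 and a log2 change of 0.75 (SE 0.17, limma adjusted p = 0.0318). Between 58 and 168 reads per library stood behind these values. The call ended without any 1 library other than KO 7 or KO 8, at log2 changes of 0.66 to 0.79, with either scaling (0.67 and 0.69) and without a filter (limma adjusted p = 0.0569).

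Mmp8, the collagenase stored in neutrophil granules, was at 1.90, 1.31, 1.14, 2.42 and 2.35 RPKM in KO 1, KO 4, KO 7, KO 8 and KO 17. In WT 2, WT 9, WT 19, WT 86 and WT 89 it was at 1.15, 0.722, 0.830, 0.789 and 0.709 RPKM. The groups met at KO 7 and WT 2. Means were 1.82 ± 0.58 and 0.84 ± 0.18 RPKM, a ratio of 2.17 and a log2 change of 0.77 (SE 0.18, limma adjusted p = 0.0357), which understates the change of so low a gene. These levels rest on 50 to 100 reads in the KO-labelled libraries and 26 to 45 reads in WT, and voom on the recovered reads gave 1.04. The call was kept without KO 4, KO 7 or WT 2 and ended in the 7 other runs (0.67 to 0.76), and median-ratio scaling ended it at 0.70, as did testing without a filter (limma adjusted p = 0.0621).

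Neutrophil and monocyte markers were read beside Mmp8. Of the 9 on the list 4 were called higher, S100a9, Retnlg, Cxcr2 and Ccr2, where 4.00% of all genes tested were. No marker was at 0 in every library. The others, S100a8, Csf3r, Ly6g, Ngp and Ly6c2, had log2 changes of 0.44 to 1.27 without passing (limma adjusted p of 0.0529 to 0.334). The summed level of the 9 was 459 to 843 RPKM in the KO-labelled libraries and 195 to 391 RPKM in WT. S100a8 and S100a9 carried most of it, at means of 323 and 257 RPKM of 664 in the KO-labelled group. Within the KO-labelled group the sum was 843 RPKM in KO 1, 833 in KO 8 and 706 in KO 17, against 459 in KO 4 and 477 in KO 7. KO 4 and KO 7 were thus the lowest for the marker sum and for Mmp8, while KO 1 led the sum and KO 8 led Mmp8. The part of these cells in the result was not tested. The calls of Retnlg and Cxcr2 ended with median-ratio scaling (limma adjusted p = 0.0507 and 0.108), that of Cxcr2 also with quantile normalization, and they were kept in 3 and 1 of the 10 runs without 1 library, whereas S100a9 and Ccr2 were called in all of these. Mmp25, a membrane-anchored protease gene also known from neutrophils and named here after its values were seen, was likewise lowest in KO 4 and KO 7 among the KO-labelled libraries, with 1.07, 1.24 and 0.921 RPKM in KO 1, KO 8 and KO 17 and 0.411 and 0.496 in KO 4 and KO 7. The gelatinase gene Mmp9, made by neutrophils and macrophages, was at 13.8, 14.0 and 12.4 RPKM in KO 1, KO 8 and KO 17 and at 9.65 and 9.22 in KO 4 and KO 7. Neither passed the test: Mmp25 had a log2 change of 0.21 (SE 0.19, limma adjusted p = 0.561) and Mmp9 of 0.19 (SE 0.21, limma adjusted p = 0.633), both with WT libraries inside the KO-labelled range. Between 22 and 64 reads per library stood behind Mmp25. The WT libraries did not all follow the marker sum. WT 2 led the sum (391 RPKM), Mmp8 and Mmp25, and WT 89 was lowest for the sum (195 RPKM) and Mmp8. But WT 9, at 301 RPKM in the sum, was the lowest WT library for Mmp25 (0.444 RPKM) and Mmp9 (6.26 RPKM). WT 19, at 298 RPKM in the sum, led Mmp9 (14.8 RPKM).

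**Figure D3:**
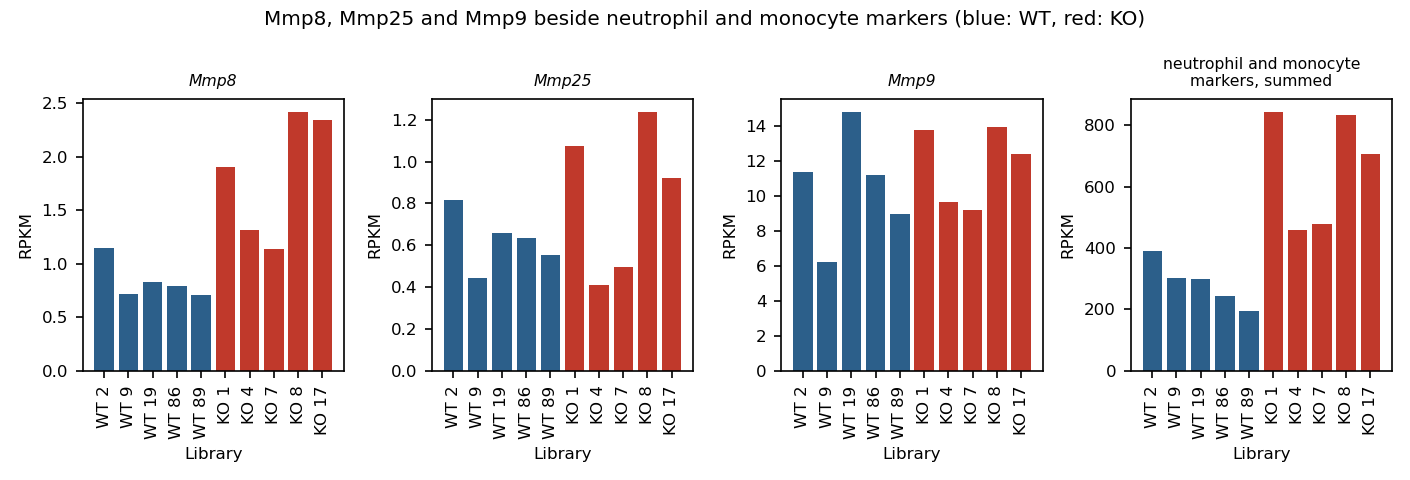
RPKM of Mmp8, Mmp25, Mmp9 and the summed 9 neutrophil and monocyte markers in each library, WT in blue and KO-labelled in red, all axes from 0. In all 4 panels KO 4 and KO 7 are the lowest of the KO-labelled libraries, and only the marker sum keeps all of them above WT. The order of the WT libraries differs between panels: WT 9 is the lowest of them for Mmp25 and Mmp9 but not for the marker sum.

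Mmp19 encodes a secreted metalloproteinase that cuts basement membrane proteins, and it was the steadiest of the called members over left-out libraries. Values were 38.6, 38.7, 41.6, 32.8 and 37.2 RPKM in KO 1, KO 4, KO 7, KO 8 and KO 17, against 29.2, 30.6, 25.6, 24.1 and 29.2 RPKM in WT 2, WT 9, WT 19, WT 86 and WT 89. The groups did not overlap, with 37.8 ± 3.2 and 27.8 ± 2.8 RPKM on average, a ratio of 1.36 and a log2 change of 0.44 (SE 0.08, limma adjusted p = 0.0175). The call held in all 10 runs without 1 library (0.39 to 0.49) and ended with median-ratio scaling (log2 change 0.35, adjusted p = 0.0979) and quantile normalization (0.35, adjusted p = 0.0525). After median-ratio scaling the groups overlapped, with 30.9 RPKM in KO 8 and 31.7 RPKM in WT 89. In GENCODE M21, 28.3% of the exon bases of Mmp19 are shared with genes on the opposite strand, Tmem198b among them, and no strand setting is given in the sources used here. Tmem198b itself was at 5.28 ± 0.49 and 5.22 ± 0.29 RPKM (log2 change 0.01). The protein-coding Mmp19 transcript ENSMUST00000026411 was at 34.1 ± 2.5 RPKM and 26.6 ± 2.1 RPKM, again without overlap (30.1 RPKM as the lowest KO-labelled and 28.7 as the highest WT value), and did not pass the test over transcripts (log2 change 0.35, limma adjusted p = 0.131).

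Among collagenases, stromelysins and the macrophage elastase, the other members did not pass. Mmp12, the macrophage elastase gene and the neighbour of Mmp3, was at 65.6, 37.9, 39.8, 49.7 and 43.0 RPKM in KO 1, KO 4, KO 7, KO 8 and KO 17, and at 44.3, 25.2, 38.9, 23.7 and 38.6 RPKM in WT 2, WT 9, WT 19, WT 86 and WT 89. The groups overlapped, and the log2 change was 0.48 (SE 0.21, limma adjusted p = 0.185). Macrophage markers had 0 of 9 called in either direction, with summed levels of 848 to 1000.2 RPKM in KO-labelled libraries and 570.5 to 816 RPKM in WT and none at 0, and their part was not tested. Mmp13, the main collagenase of rodents, was below the filter at 0.638 ± 0.379 and 0.386 ± 0.17 RPKM, with 6 to 48 reads per library. Mmp11 (stromelysin-3) was at 6.83 ± 1.21 and 7.23 ± 1.46 RPKM (log2 change -0.07). Of the untested low genes, Mmp27 rested on 3 to 13 reads in KO-labelled libraries and 1 to 3 in WT, and Mmp10 on 0 to 5 reads in all.

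Mmp14 and Mmp2, the proteases with the highest levels, did not pass the test, and neither did Mmp23 and Mmp15. Mmp14, which activates the MMP2 precursor and cuts collagen at the cell surface, was at 132 RPKM in KO 1 and 93.7 to 109 RPKM in the other KO-labelled libraries, against 80.1 to 115 RPKM in WT (log2 change 0.21, SE 0.11, limma adjusted p = 0.269). Mmp2 was at 42.5 to 63.8 and 38.3 to 63.9 RPKM (log2 change 0.14, 95% interval -0.18 to 0.46). Mmp23, a protease anchored to membranes, lay at 30.8 to 36.0 RPKM in KO-labelled libraries and 27.4 to 32.2 in WT (log2 change 0.18, limma adjusted p = 0.108). Mmp15, another membrane-type MMP, was at 2.93 ± 0.39 and 3.2 ± 0.59 RPKM. The upper ends of the 95% intervals of Mmp14 and Mmp2 were log2 changes of 0.45 and 0.46.

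None of the 13 tested Adamts genes was called, and 2 had an unadjusted p under 0.05 with a higher and 1 with a lower level. Of all genes tested, 24.7% had such a p in either direction. Adamts12, a protease known to cleave the cartilage protein COMP, was at 11.1, 10.9, 12.1, 12.8 and 10.7 RPKM in KO 1, KO 4, KO 7, KO 8 and KO 17, and at 11.7, 15.1, 14.5, 14.9 and 15.0 RPKM in WT 2, WT 9, WT 19, WT 86 and WT 89. WT 2 alone of the WT libraries lay within the KO-labelled range. The log2 change was -0.29 (SE 0.08, limma adjusted p = 0.0595). It was called lower without WT 2 (-0.36, adjusted p = 0.0174), by voom on the recovered reads (-0.30), with median-ratio scaling (-0.38, adjusted p = 0.0379) and with quantile normalization (-0.38, adjusted p = 0.0421). Its direction was thus the same under both scalings, and the adjusted p ran from 0.0174 to 0.127 over all alternatives.

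The enzymes that cleave aggrecan and versican were not called. The 5 tested had log2 changes of 0.11 to 0.24, with Adamts1 at 27.0 ± 5.6 and 24.8 ± 3.8 RPKM and Adamts15 at 26.6 ± 5.5 and 22.8 ± 1.7 RPKM. KO 7 held the highest Adamts1 value of the series, 36.9 RPKM. Adamts20, a relative of Adamts9, was below the filter, with 0.334 to 0.471 RPKM in KO-labelled libraries and 0.477 to 0.627 in WT. These groups did not overlap, where 2.15% of the tested genes had all KO-labelled libraries below all WT libraries. Between 46 and 91 reads stood behind each value. Adamts20 was not tested in the main fit and has no p there. In the run without a filter it was tested and not called.

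The procollagen N-proteinases, which remove the amino-terminal propeptides of fibrillar collagens, had log2 changes of -0.04 to 0.10. Adamts2 was at 39.9 to 44.6 RPKM in KO-labelled libraries and 34.8 to 43.4 in WT, and Adamts14 at 4.42 ± 0.73 and 4.55 ± 0.72 RPKM. Adamts10, which binds fibrillin microfibrils, was at 21.7 ± 3.4 and 20.5 ± 1.9 RPKM, and its sign turned with either scaling. Adamts6 (log2 change 0.29) and Adamts9 (0.24), named after their values were seen, had intervals above 0 and limma adjusted p of 0.127 and 0.172.

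The 5 ADAMTS-like genes were not called, with log2 changes of -0.04 to 0.19. Adamtsl5 was at 11.1 ± 0.7 and 10.3 ± 0.8 RPKM, and Adamtsl4, a microfibril-associated protein gene, at 8.45 ± 1.20 and 8.37 ± 0.25 RPKM, where either scaling turned the sign. Adamtsl2, which binds the TGFb-binding protein LTBP1 and is named here after its values were seen, varied widely between animals: 4.15 RPKM in KO 17 and 3.78 in KO 4 against 1.01 to 1.85 in the other KO-labelled libraries, and 4.21 in WT 89 and 3.24 in WT 9 against 0.891 to 2.10 in the other WT libraries. KO 4 and KO 17 were also the 2 highest of their group for Timp4 and for Mmp28, an MMP gene of epithelia also singled out afterwards (10.8 RPKM each, against 6.42 to 7.23). In WT, WT 9 and WT 89 were the 2 highest for Timp4, Adamtsl2 and Mmp28 alike. This order was seen in the values and was not tested, and it ran within each group rather than between them.

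**Figure D4:**
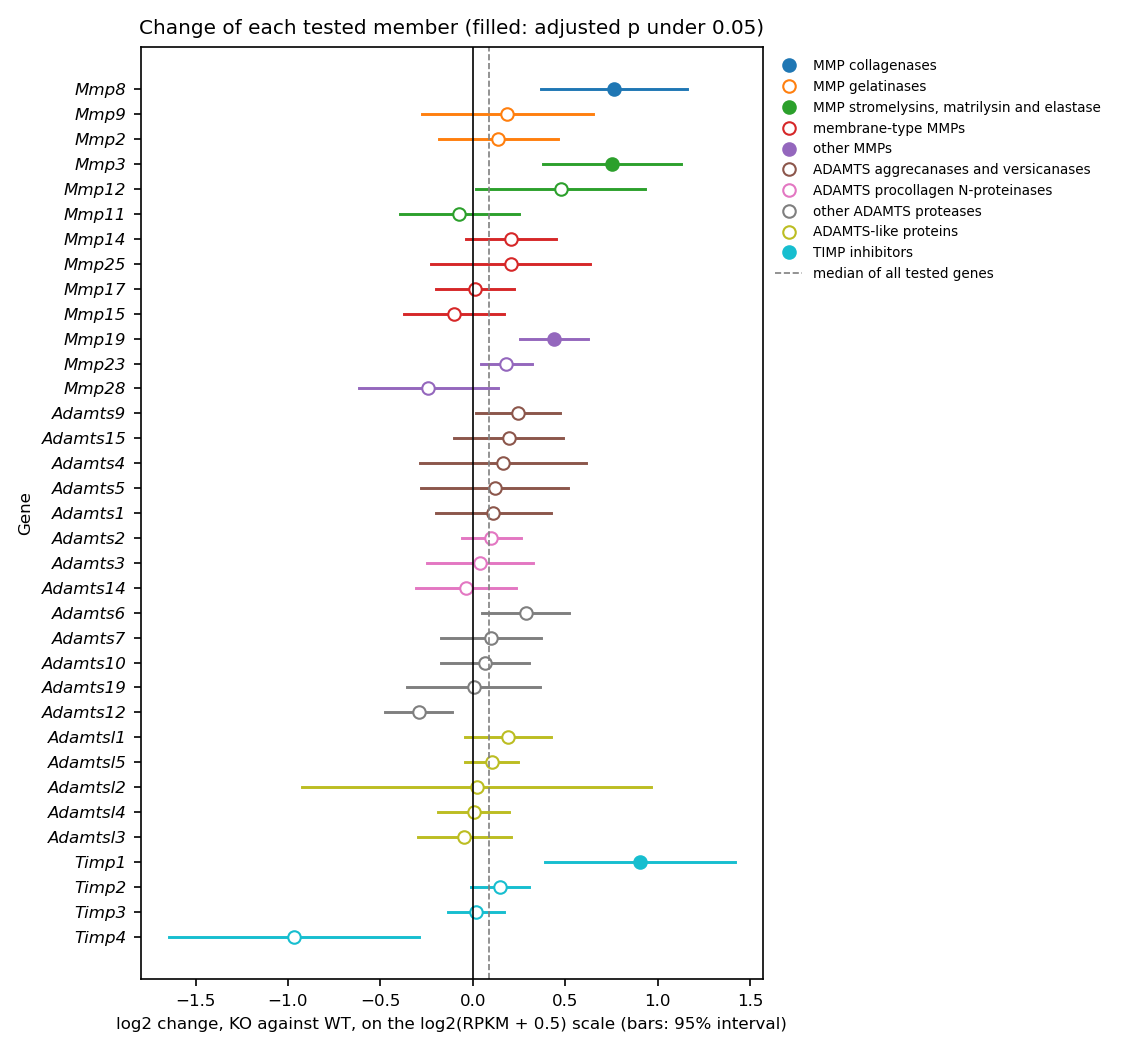
Log2 change, KO-labelled against WT, of the 35 tested members on the log2(RPKM + 0.5) scale, grouped by role, with 95% intervals as bars and filled points for adjusted p under 0.05. The dashed line is the median of all tested genes, 0.089; Timp1 and Timp4 lie at 0.90 and -0.97, and most ADAMTS genes lie near the dashed line.

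Proteases were set against inhibitors by summed RPKM, as a description without a test. The 41 proteases summed to 553, 523, 490.1, 505 and 504 RPKM in KO 1, KO 4, KO 7, KO 8 and KO 17, and to 439.5, 427, 505, 460 and 436 RPKM in WT 2, WT 9, WT 19, WT 86 and WT 89. WT 19 lay within the KO-labelled range. The 4 TIMP genes summed to 305 to 379 RPKM in KO-labelled libraries and 249 to 296 RPKM in WT, without overlap. After median-ratio scaling the TIMP sums overlapped (290.5 to 377 and 252 to 299 RPKM), and the differences in means went from 57.6 to 38.7 RPKM for the TIMP genes and from 61.6 to 30.7 RPKM for the proteases.

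The balance of inhibitors to proteases overlapped between groups. Summed TIMP RPKM was 0.636 ± 0.038 of summed protease RPKM in the KO-labelled group and 0.597 ± 0.012 in WT, with overlapping ranges (0.583 to 0.684 and 0.582 to 0.609). The makeup of the TIMP sum differed more. Timp1 made up 32.3 ± 4.5% of it in KO-labelled libraries and 21.3 ± 5.9% in WT, and Timp4 made up 3.25 ± 1.77% and 7.25 ± 2.01%. The ratio of Timp1 to Timp4, chosen after the values were seen, was 20.5, 6.23, 17.6, 13.5 and 5.59 in KO 1, KO 4, KO 7, KO 8 and KO 17, and 3.55, 1.55, 4.76, 4.94 and 1.68 in WT 2, WT 9, WT 19, WT 86 and WT 89. It did not overlap between groups, and as the ratio sets side by side the 2 Timp genes already seen to differ most, this is a description. Median-ratio scaling, with 1 factor per library, leaves the ratio as it is.

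**Figure D5:**
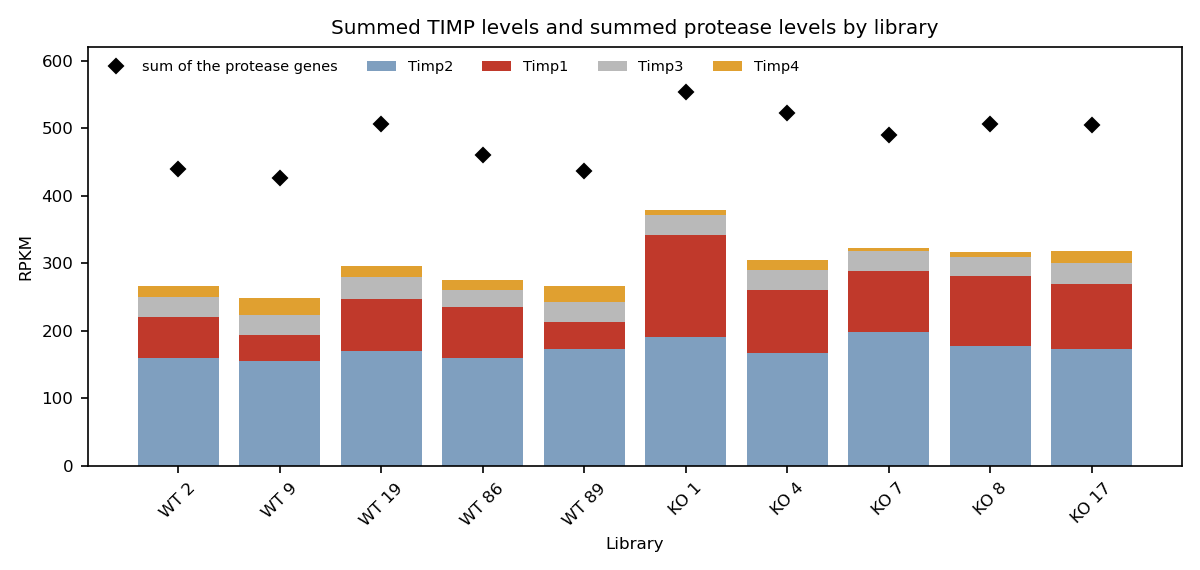
Stacked bars give RPKM of the 4 Timp genes in each library, and diamonds the summed RPKM of the 41 protease genes. The Timp1 segment is taller in every KO-labelled library (90.04 to 150.5 RPKM) than in any WT library (38.2 to 76.9 RPKM), while the Timp2 segment is the largest in all 10.

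The transcript table gave no called member. Of 159 transcripts listed for the 50 members 91 were tested, and 0 were called in either direction, where 0.544% of all 44475 tested transcripts were (0.0922% higher and 0.452% lower). At an unadjusted p under 0.05, 5 member transcripts were higher and 2 lower. The share of all transcripts at this level was not computed, so the count cannot be read as many or few. Timp1 was split over 2 protein-coding transcripts, ENSMUST00000009530 at 80.5 ± 15.3 and 42.9 ± 13.5 RPKM and ENSMUST00000115342 at 31.3 ± 16.9 and 17.9 ± 5.6 RPKM, so the larger part of the difference in means lay in the first. The Mmp3, Mmp8 and Timp4 transcripts, 1 each, were at 4.22 and 2.43, 1.74 and 0.868, and 8.20 and 15.9 RPKM in KO-labelled and WT libraries.

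Related genes of pericellular proteolysis were read from lists of activators, substrates and other proteases, of which 52 of 65 genes were tested. Of these 9 were called higher and 0 lower, and 3 and 5 kept a call with median-ratio scaling and quantile normalization. Of all 17038 genes tested, 4.00% were called higher and 1.95% lower, and 102 and 149 genes were called higher with these scalings. Bsg, whose surface glycoprotein basigin is known as an inducer of MMPs, was called higher, with 239 to 276 RPKM in KO-labelled libraries and 143 to 171 RPKM in WT. Its log2 change was 0.68 (SE 0.07, limma adjusted p = 0.000577). Tfpi2, an inhibitor of plasmin, rose from 2.54 ± 0.39 to 3.88 ± 0.27 RPKM (log2 change 0.53, limma adjusted p = 0.0148). The membrane inhibitor gene Reck and the clearance receptor gene Lrp1 had log2 changes of 0.07 and -0.06. Thbs2, the gene of a matrix protein that binds MMP2, had a larger log2 change than Bsg in the other direction without passing (-1.09, limma adjusted p = 0.0524), at 27.4 ± 6.5 RPKM in KO-labelled libraries and 61.0 ± 20.2 RPKM in WT, and is named after its values were seen.

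Pcolce, whose product enhances removal of the carboxy-terminal procollagen propeptide, was at 39.2 to 47.1 RPKM in KO-labelled libraries and 29.9 to 34.3 RPKM in WT (log2 change 0.42, SE 0.07, limma adjusted p = 0.006315). Its relative Pcolce2 was also called (0.61, limma adjusted p = 0.0413), but the call was kept in only 1 of 10 runs without 1 library and ended without a filter and with both scalings (adjusted p = 0.111 and 0.0962). Bsg, Pcolce and Tfpi2 were called in every run without 1 library and with both scalings, which no protease or inhibitor member was. The 6 tested fibrillar procollagen genes, whose products these enzymes process, had 0 called, with Col3a1 at 566 ± 76 and 519 ± 125 RPKM and Col1a1 at 321 ± 28 and 390.1 ± 154.0 RPKM.

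Among lysosomal proteases, Ctsl (log2 change 0.50) and Ctsk (0.45) were called higher, as was the cathepsin inhibitor gene Cst3 (0.38), at limma adjusted p of 0.0251, 0.0204 and 0.0388. Median-ratio scaling ended all of these calls. Of the ADAM shedding proteases 1 of 10 was called, Adam9 (0.26), and of the proteoglycan and glycoprotein substrates 1 of 7, Vcan, the versican gene (13.8 ± 2.1 and 10.1 ± 0.9 RPKM, log2 change 0.42). Both calls ended with either scaling. None of the 8 tested genes of plasminogen activation passed, and the urokinase receptor gene Plaur was at 40.4 ± 5.4 and 30.4 ± 4.6 RPKM (log2 change 0.41, limma adjusted p = 0.0802). Serpinb2 of the same list, named after its values were seen, had a larger log2 change without passing (1.18, limma adjusted p = 0.0683). It was at 26.3 ± 10.8 RPKM in KO-labelled libraries and 10.9 ± 3.7 RPKM in WT, with overlapping ranges.

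Markers of other cell types were read in the same libraries. Fibroblast and progenitor markers, from cells known to make Timp1, Mmp2 and Mmp3, had 1 of 10 called higher (Lum) and summed to 1354 to 1645 RPKM in KO-labelled libraries and 1044 to 1265 RPKM in WT. Endothelial markers had 1 of 8 lower, pericyte and smooth muscle markers 2 of 8 lower, and mast cell markers 4 of 6 higher and 1 lower. Beside these counts, 4.00% of all genes tested were called higher and 1.95% lower. The calls of Lum and of the mast cell markers Mcpt4 and Hdc ended with both scalings, and that of the endothelial marker Kdr was kept in 1 of 10 runs without 1 library. Markers of mesothelium, of T and B cells and of the ovary, oviduct and uterus had 0 called. None of these lists had a marker at 0 in all libraries. The part of these cell types in the member values was not tested.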

How the data were processed

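Polyadenylated RNA of gonadal fat from 5 KO-labelled and 5 WT mice was measured. Gene and transcript values are RPKM as deposited by the authors; the submitters' processing notes name bcl2fastq, STAR 2.0.4b1, Subread and featureCounts 1.4.52, and no source used here gives the genome build, annotation or strand setting. Exact repeats of rows were removed, leaving 40503 genes.

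Differences were fitted with limma 3.58.1 (R 4.3.3, statmod 1.5.0) on log2(RPKM + 0.5), with a trended, robust prior, over the genes with at least 0.5 RPKM in at least 5 of 10 libraries, and p-values were adjusted by Benjamini-Hochberg over all of them. Log2 changes on this scale understate the change of low genes. The fit was tested on simulated reads with 200 genes changed and the same spread for all genes. It called 11.9% of the genes changed 1.5 times, 80.6% of those changed 2 times and 90.9% of those changed 4 times. Of its calls there 6.15% were false. Most changes of 1.5 times were thus missed in the simulation, so a member that was not called is not shown to be unchanged. Whole reads were recovered from the RPKM steps for 100% of 25122 eligible genes, within 0.001 reads, and gave 14441275 to 20179236 reads per library. Voom on these reads, other pseudocounts, filters, scalings, weights and each left-out library were the alternatives.

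Groups and animal numbers came from the sample titles. Full values are given for called members, the Timp genes and the 2 most abundant members of each role, and members whose groups do not overlap may be named; others named are marked as chosen after their values were seen, as are the low genes Mmp10 and Mmp27. The members and lists were chosen with earlier results of these data known. Promoters are RefSeq windows of GRCm38.p6, cut to the 250 bases before the start; 35 members matched. Exon overlaps are from GENCODE M21, which may not be the authors' annotation. The values of 1 gene of the related lists are not reported here.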

Additional observations from a re-analysis of the deposited data

Results flagged for a closer look

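In 4 of 48 checked sets of 5 libraries, 1 library stood apart from the others of its group by Dixon's criterion (gap to the nearest library over the whole range above 0.71), where chance gives about 1 in 20. Timp1 was at 150.5 RPKM in KO 1, with the next KO-labelled library at 104.0 RPKM (gap share 0.769), and its log2 change without KO 1 was 0.77. Adamts1 was at 36.9 RPKM in KO 7, with the next at 25.8 RPKM (gap share 0.818). Adamts12 was at 11.7 RPKM in WT 2, below the next WT library at 14.5 RPKM (gap share 0.840). Mmp8 was at 1.15 RPKM in WT 2, above the next WT library at 0.830 RPKM (gap share 0.725).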

How the results depend on the processing

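No paired analysis was possible because the groups share no animal number. Of the alternative values for single genes, 360 kept their direction and side of the threshold, 35 lost a call, 4 gained one and 19 turned sign. Over all genes 1013 were called (681 higher, 332 lower); without a filter 539 (292 higher), with median-ratio scaling 516 (102 higher) and with quantile normalization 541 (149 higher). Leaving out 1 library gave 397 to 1006 called, 192 to 693 higher and 205 to 313 lower; the lowest count came without KO 1. These scalings moved the median log2 change of all genes from 0.089 to 0.0076 and 0.024. Of the 4 members called higher, 1 was without a filter, 0 with median-ratio scaling and 1 with quantile normalization, and 1 to 3 without 1 library. Members called lower went from 0 to 1 with median-ratio scaling, quantile normalization and voom, and were 0 to 1 without 1 library; members called in all were then 1 without a filter, 1 and 2 with these scalings, and 1 to 3 without 1 library. Transcripts called went from 242 to between 136 and 221 without 1 library. The Med19 difference of 0.0931 RPKM ranged from -0.205 to 0.398. The summed protease difference of 61.6 RPKM ranged from 52.02 to 74.5 without 1 library and was 30.7 with median-ratio scaling; that of the TIMP genes, 57.6 RPKM, ranged from 44.9 to 64.0 without 1 library and was 38.7 with median-ratio scaling. Signs turned with median-ratio scaling and quantile normalization for Timp3 (-0.0746 and -0.0800), Adamts10 (-0.0249 and -0.0187) and Adamtsl4 (-0.0840 and -0.0673). Without 1 library the log2 change ran from -0.0336 to 0.0562 for Timp3, -0.0036 to 0.18 for Adamts1, -0.0011 to 0.13 for Adamts10, -0.0606 to 0.0573 for Adamtsl4, -0.16 to 0.0089 for Mmp11 and -0.12 to 0.0187 for Adamts14. The cause of these shifts was not tested. Depth limits Mmp8, Mmp25, Mmp13 and the other untested members, at no more than 100 reads per library.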
